A study of Mus musculus with 8 samples.

Results

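ATP-binding cassette (ABC) transporters are membrane pumps that use ATP to move lipids, drugs, peptides and other molecules across membranes. The 9 genes described here were taken from the count table by symbol, namely the sterol exporters Abca1 and Abcg1, the lipid transporters Abca2, Abca3 and Abca7, and the drug exporters Abcb1a, Abcb1b, Abcc1 and Abcg2. All 9 of 9 were found among 41730 gene rows, and all 9 passed the filter on low counts. The question was how selective the induction of the sterol exporters is within the transporter family.

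The cells were naive mouse CD8+ T cells, isolated with a magnetic kit and cultured for 24 h. The RGX-104 group (4 libraries, replicates 5 to 8) received 2 µM of this compound, which activates the liver X receptors (LXR), and the DMSO group (4 libraries, replicates 1 to 4) received the solvent alone. The labels give no strain, age, sex or genotype, and nothing in them ties a library to an animal or a culture of its own. P-values accordingly reflect how much these libraries vary, in which technical variation alone may count.

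LXR are nuclear receptors that sense oxidised sterols and, paired with retinoid X receptors, bind DNA at repeats of a short motif. Abca1 and Abcg1 are long-known LXR target genes in macrophages and many other cells, and their products hand cholesterol and phospholipids to lipoproteins outside the cell. In T cells the loss of these exporters is known to raise membrane cholesterol. P-glycoprotein, encoded in mice by Abcb1a and Abcb1b, together with Abcc1 and Abcg2, is best known for pumping drugs and foreign compounds out of cells.

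Among the members whose promoter could be read, Abca1 was the one with a match to the LXR type of DNA repeat, so that stretch is shown. RefSeq promoter windows on GRCm38.p6, 300 bases each with 250 bases before and 50 after a transcript start, were matched for 7 of the 9 genes, and Abcg1 and Abcc1 were not searched. The letters searched on both strands were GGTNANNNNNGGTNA, the core of a direct repeat with 4 bases between its copies (DR4). Of 32851 windows of this length, 236 (0.718%) held these letters. The Abca1 window held 1 match, at 67 to 53 bases before the start on the strand opposite to the gene, and the windows of Abca2, Abca3, Abca7, Abcb1a, Abcb1b and Abcg2 held none. The stricter letters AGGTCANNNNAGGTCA were found in 5 of all windows and in none of these genes' windows. A match describes letters only, and a window without one says nothing of sites elsewhere. The start used for the Abca1 window, 53159895, lies 93 bases inside the RefSeq span of the gene, which reaches 53159988, so the match lies before the first and within the second. The match is shown with its flanks, 30 bases on the minus strand at chr4:53159940-53159969, with the DR4 core in capitals.
Abca1 promoter: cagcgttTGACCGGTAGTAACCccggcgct
Read on the other strand the match is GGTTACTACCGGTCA.

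The libraries held 16196217 to 28287445 counts in RGX-104 and 16308726 to 24353797 counts in DMSO. Genes with at least 1 count numbered 10442 to 10990 in RGX-104 and 9772 to 10908 in DMSO, where replicates 1 to 3 had the fewest (9772 to 10194). Zeros were more frequent among low genes than such totals give for independent reads. The number of apparent molecules that would give those zeros came to 247615 to 338887 per library in RGX-104 and 181307 to 313869 in DMSO, so that 1 apparent molecule corresponded to 2.95 to 5.52 CPM, a unit of counts scaled to the same total in every library. Of 14 markers of CD8 T cells 12 were tested and none was called, and their summed level was 4868 ± 230 CPM in RGX-104 and 4713 ± 94.2 CPM in DMSO (SD, n = 4 each). Cd2 and Cd28, which belong to that list, were listed at 0 in every library. T cells are known to express both, so a listed 0 in this table does not show that a gene was silent, and whether reads were lost in the counting was not tested.

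Abca1 and Abcg1 rose, and they were the members that passed the test. Abca1 was at 346 ± 34.8 CPM in RGX-104 cells and 6.61 ± 5.59 CPM in DMSO cells, and Abcg1 at 773 ± 56.1 CPM in RGX-104 cells and 74.4 ± 42.1 CPM in DMSO cells (mean ± SD, n = 4 each). The 7 other members, the lipid transporters and the drug exporters alike, had overlapping groups and did not pass. Among all 10037 genes tested, 0.0996% were called higher and 0.00996% lower (edgeR quasi-likelihood test, adjusted p under 0.05), against 2 of the 9 members called higher and 0 lower. An unadjusted edgeR p under 0.05 was found for these 2 members alone, against 3.81% of genes tested. DESeq2, which called 0.362% of the genes it tested, and limma-voom called the same 2 members. The members had a median log2 fold change of 0.13, against 0.01 for all genes tested.

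**Figure D1:**
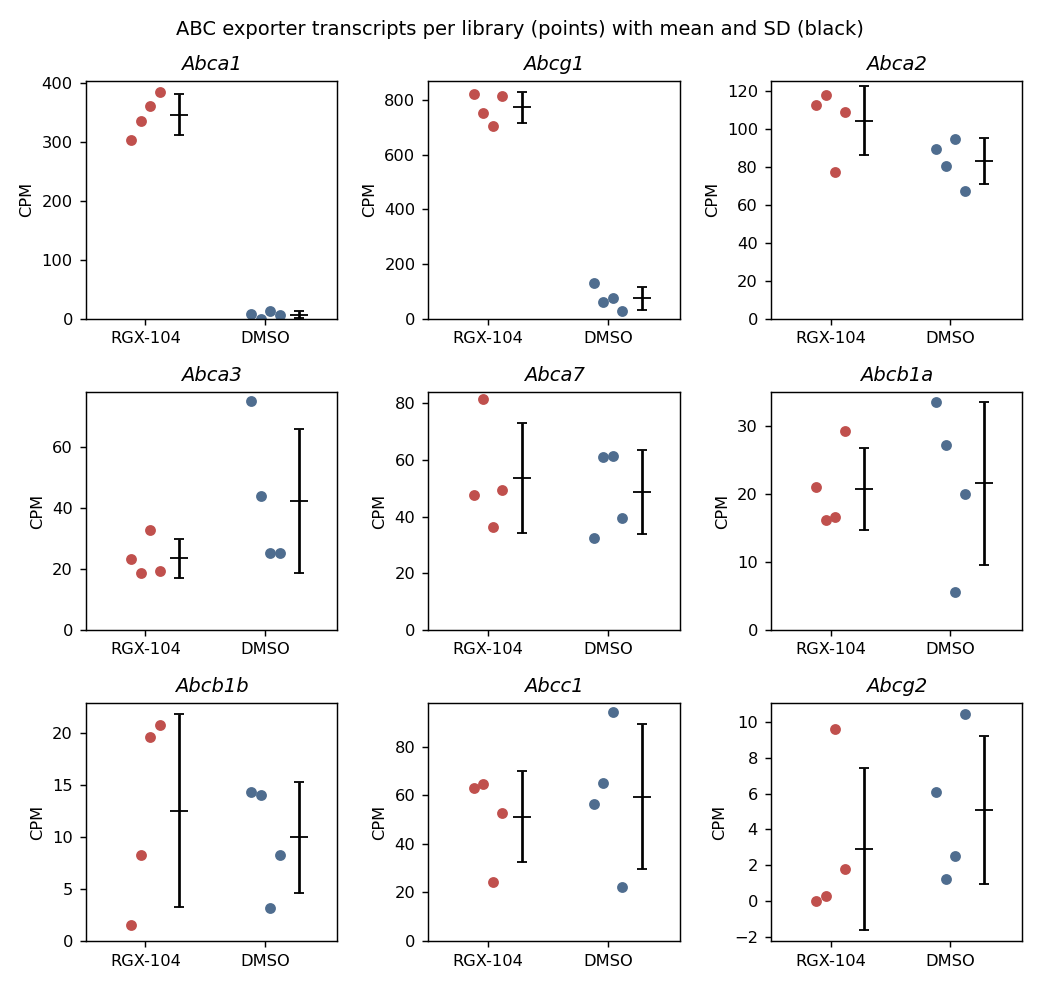
Level of each of the 9 genes in CPM (vertical axis, its own scale in each panel) in the 4 RGX-104 and the 4 DMSO libraries; points are libraries and the black marks are the mean and SD. Abca1 and Abcg1 separate without overlap, with 303 CPM or more and 703 CPM or more in RGX-104, whereas the groups of the other 7 genes overlap.

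Abca1, which moves cholesterol and phospholipid to lipid-poor apolipoprotein at the plasma membrane, lies on chromosome 4 at 53030789 to 53159988. Its level was 303, 336, 361 and 384 CPM in RGX-104 replicates 5 to 8, against 7.04, 0, 13.6 and 5.76 CPM in DMSO replicates 1 to 4. Every RGX-104 library lay far above every DMSO library, and DMSO replicate 2 had no count at all. That zero allows up to 0.161 CPM for counting error of independent reads, while 1 apparent molecule in that library stood for 5.52 CPM. In apparent molecules the gene stood at 75.0 to 130.2 per library in RGX-104 and at 0 to 2.88 in DMSO. The DMSO level thus rests on very few apparent molecules, and the size of the fold is loosely known. The log2 fold change was 5.68 ± 0.65 (SE, edgeR adjusted p = 8.64e-05), a 51.3-fold difference with a 95% interval of 19.9 to 132. The call was lost with a robust dispersion (log2 fold change 5.68, adjusted p = 0.757), the only one of 15 alternatives that did so. With limma-voom the log2 fold change was 7.32, and without DMSO replicate 3 it was 6.31.

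Abcg1, which passes sterols on to lipid-bearing lipoprotein particles, lies on chromosome 17 at 31057694 to 31117984. It was measured at 822, 751, 703 and 814 CPM in RGX-104 replicates 5 to 8, against 129.9, 61.5, 77.2 and 29.1 CPM in DMSO replicates 1 to 4. Expression was thus plain in the solvent as well, with DMSO replicate 1 highest and DMSO replicate 4 lowest. In apparent molecules these levels were 204 to 276 per library in RGX-104 and 9.12 to 25.8 in DMSO. The log2 fold change was 3.36 ± 0.29 (edgeR adjusted p = 2.56e-06), a 10.3-fold difference with a 95% interval of 6.70 to 15.8, and it was called under all 15 alternatives. DMSO replicates 1 to 3, the libraries with the fewest genes detected, also had the highest DMSO levels of Abcg1. Against DMSO replicate 4 alone, which gives no DMSO spread, the log2 fold change was 4.70 for Abcg1 and 5.87 for Abca1. With library detection (genes with a count) as a covariate it was 4.05 for Abcg1 and 5.21 for Abca1 (edgeR adjusted p = 2.94e-05 and 0.0253).

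The relation between the sterol exporters also differed between the groups. In RGX-104 libraries Abcg1 had 1.95 to 2.72 times the CPM of Abca1, and in the 3 DMSO libraries with any Abca1 count it had 5.04 to 18.4 times. The counts come from the 3' ends of transcripts and are not scaled by transcript length. The DMSO ratios rest on the few apparent Abca1 molecules given above.

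Of the other lipid transporters, Abca2, known from nervous tissue and the endolysosomal membrane, had a slightly higher mean in RGX-104. It lies on chromosome 2 at 25428599 to 25448544. Abca2 was at 112, 118, 77.3 and 109 CPM in RGX-104 replicates 5 to 8, against 89.4, 80.2, 94.6 and 67.0 CPM in DMSO replicates 1 to 4. RGX-104 replicates 5, 6 and 8 lay above all DMSO libraries, and RGX-104 replicate 7 lay within their range. Its log2 fold change of 0.32 ± 0.22 did not pass (edgeR adjusted p = 1.00), with a 95% interval of 0.90-fold to 1.72-fold.

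Abca3, the phospholipid transporter of surfactant-storing lamellar bodies in the lung, had the lower mean in RGX-104. It lies on chromosome 17 at 24351921 to 24410204. Abca3 was at 23.2, 18.8, 32.7 and 19.2 CPM in RGX-104 replicates 5 to 8, against 75.2, 44.1, 25.1 and 25.2 CPM in DMSO replicates 1 to 4. RGX-104 replicate 7 lay above DMSO replicates 3 and 4, so the groups overlapped. The log2 fold change was -0.87 ± 0.45 (edgeR unadjusted p = 0.0676, adjusted p = 1.00) and -0.89 with DESeq2. With 1 replicate left out it ran from -1.07 without RGX-104 replicate 7 to -0.44 without DMSO replicate 1. It was -0.38 with library detection as a covariate and -0.14 against DMSO replicate 4 alone. Abca3 was called under 0 of the 15 alternatives. At its downstream end Abca3 overlaps D330041H03Rik, a transcript of the opposite strand at 9.17 ± 5.17 CPM in RGX-104 and 9.22 ± 8.38 CPM in DMSO, and with the strand setting unknown their reads may not be separable.

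Abca7, a close relative of Abca1 that moves phospholipids and is known for a role in phagocytosis, was not called. It lies on chromosome 10 at 79996453 to 80015572. Abca7 was at 47.5, 81.5, 36.4 and 49.2 CPM in RGX-104 replicates 5 to 8, against 32.4, 61.0, 61.4 and 39.5 CPM in DMSO replicates 1 to 4. Both groups covered much the same range, with RGX-104 replicate 6 the highest library. A log2 fold change of 0.13 ± 0.34 was fitted (edgeR adjusted p = 1.00), with a 95% interval of 0.66-fold to 1.80-fold.

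None of the drug exporters passed in either direction (0 of 4 by edgeR, DESeq2 and limma-voom, and 0 at an unadjusted edgeR p under 0.05). Of all genes tested, edgeR called 0.11%, and 3.81% had an unadjusted p under 0.05. A count of 0 among 4 genes is near those shares and says little by itself. The summed level of the drug exporters was 87.5 ± 14.1 CPM in RGX-104 and 96.1 ± 23.6 CPM in DMSO. Their median log2 fold change was -0.15, with 1 above 0 and 3 below.

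Abcb1a, the P-glycoprotein gene known from the blood-brain barrier, lies on chromosome 5 at 8567091 to 8748575. It was at 21.0, 16.2, 16.7 and 29.3 CPM in RGX-104 replicates 5 to 8, against 33.5, 27.2, 5.50 and 20.1 CPM in DMSO replicates 1 to 4. The RGX-104 libraries lay inside the DMSO range. These levels amount to 4.63 to 9.92 apparent molecules per library in RGX-104 and 1.16 to 6.67 in DMSO. Its log2 fold change was -0.07 ± 0.59 (edgeR adjusted p = 1.00), with a 95% interval of 0.40-fold to 2.25-fold. Rundc3b, a gene of the opposite strand that overlaps the upstream part of Abcb1a, was at 12.2 ± 11.3 CPM in RGX-104 and 7.24 ± 4.04 CPM in DMSO.

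Abcb1b, the second P-glycoprotein gene, lies downstream of Abcb1a on chromosome 5 at 8798147 to 8866314. Abcb1b was at 1.48, 8.25, 19.6 and 20.8 CPM in RGX-104 replicates 5 to 8, against 14.3, 14.04, 3.20 and 8.22 CPM in DMSO replicates 1 to 4. RGX-104 libraries were both the highest and the lowest of the 8. Abcb1b had a log2 fold change of 0.31 ± 0.99 (edgeR adjusted p = 1.00), and its 95% interval of 0.29-fold to 5.25-fold holds sizeable changes in either direction. In GENCODE M21 the transcripts of the P-glycoprotein genes share 1064 stretches of 31 bases, or 24.7% of those of Abcb1b. None of the 470 stretches in the last 500 bases of Abcb1a transcripts occurs in Abcb1b, whereas 210 of the 850 in the last 500 bases of Abcb1b transcripts occur in Abcb1a. Reads of Abcb1b are therefore uncertain where the counting could have split or dropped them.

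Abcc1, which exports glutathione conjugates and leukotrienes, lies on chromosome 16 at 14361453 to 14474878. It was at 63.0, 64.9, 24.5 and 52.7 CPM in RGX-104 replicates 5 to 8, against 56.3, 65.2, 94.4 and 22.1 CPM in DMSO replicates 1 to 4. The lowest library of each group, RGX-104 replicate 7 and DMSO replicate 4, lay side by side. Abcc1 had a log2 fold change of -0.22 ± 0.40 (edgeR adjusted p = 1.00), with a 95% interval of 0.48-fold to 1.52-fold. Its direction turned with library detection as a covariate (0.53), against DMSO replicate 4 alone (1.18), and without DMSO replicate 3 (0.08) or RGX-104 replicate 7 (0.01).

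Abcg2, the breast cancer resistance protein and a relative of Abcg1, lies on chromosome 6 at 58584491 to 58692451 and was at the limit of detection. It had 0, 0.281, 9.57 and 1.78 CPM in RGX-104 replicates 5 to 8, against 6.07, 1.24, 2.50 and 10.4 CPM in DMSO replicates 1 to 4. These levels amount to 0 to 2.94 apparent molecules per library in RGX-104 and 0.224 to 3.27 in DMSO. The log2 fold change was -0.83 ± 1.97 (edgeR adjusted p = 1.00), with a 95% interval of 0.03-fold to 9.85-fold. That interval is wide enough to hold sizeable changes in either direction. The value was -2.91 without RGX-104 replicate 7, -0.19 without DMSO replicate 4, -2.32 with library detection as a covariate, -1.88 against DMSO replicate 4 alone and -3.04 with limma-voom, none of them called.

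**Figure D2:**
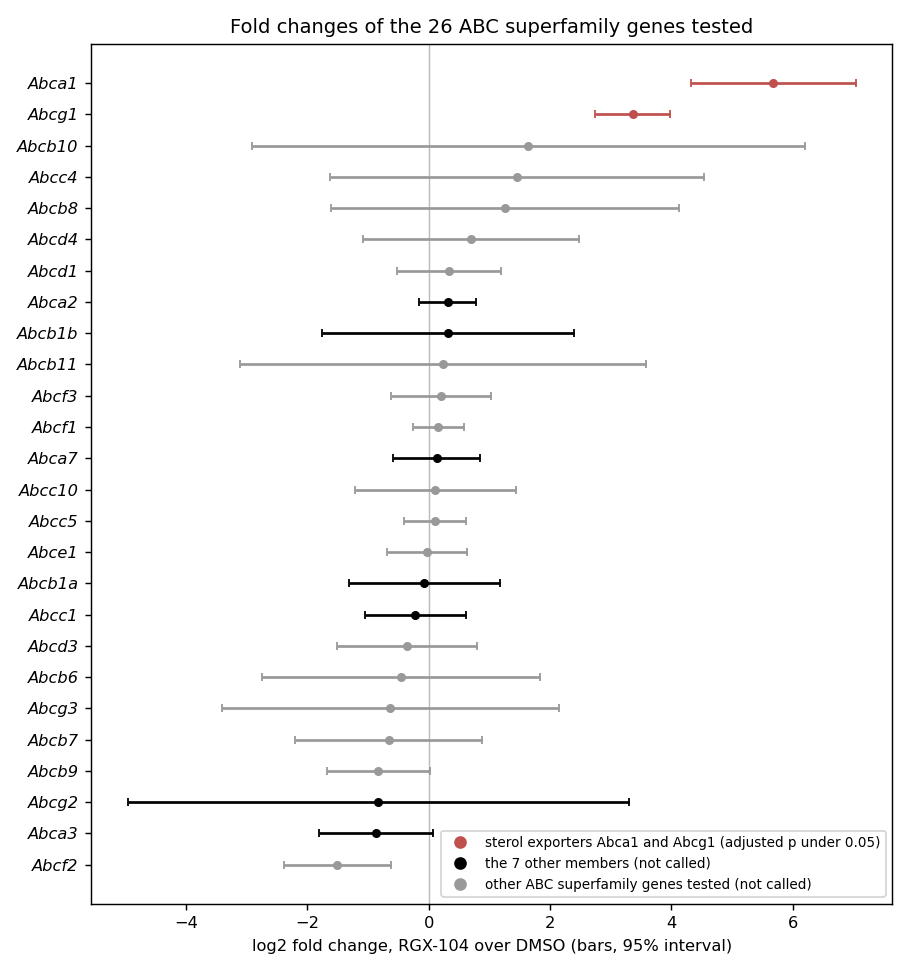
Log2 fold change of RGX-104 over DMSO with its 95% interval (horizontal axis) for the 26 tested genes of the ABC superfamily list (vertical axis, sorted), with Abca1 and Abcg1 in red, the 7 other members in black and the remaining genes in grey. The intervals of Abca1 (4.32 to 7.04) and Abcg1 (2.74 to 3.98) lie to the right of 0, while those of the 7 other members include it.

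The intervals and the ratios within libraries compare the sterol exporters with the other members. The upper 95% bound of the log2 fold change lay below the lower bound of Abcg1 (2.74) for 6 of the 7 other members, the exception being Abcg2 with an upper bound of 3.30, and below the lower bound of Abca1 (4.32) for all 7. The log2 ratio of each sterol exporter to each other member was then compared between the groups, which gave 14 ratios. Each of the 14 was higher in all 4 RGX-104 libraries than in any DMSO library. The exact permutation test gave p = 0.0286 for each, the smallest that 4 against 4 libraries allow. The adjusted p over the 14 ratios was also 0.0286. With 1 library left out the 14 stayed separated, and the smallest p of the same test was then 0.0571. The members were chosen with earlier results known, and both exporters had already separated without overlap. These p-values therefore add little to that separation. For Abcg1 the mean difference of the log2 ratio ran between 3.24 against Abca2 and 5.65 against Abcg2. The ratio of Abcg1 to Abca7 averaged 3.91 ± 0.48 in RGX-104 and 0.47 ± 1.07 in DMSO on the log2 scale, and that of Abcg1 to Abcb1a 5.25 ± 0.32 in RGX-104 and 1.86 ± 1.41 in DMSO (SD, n = 4 each). The ratios of Abca1 to the other members were at least 6.65 apart on the log2 scale, a size that the library with no Abca1 count sets in part through the prior count of 2. The 14 ratios share numerators and denominators and are not independent of each other.

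**Figure D3:**
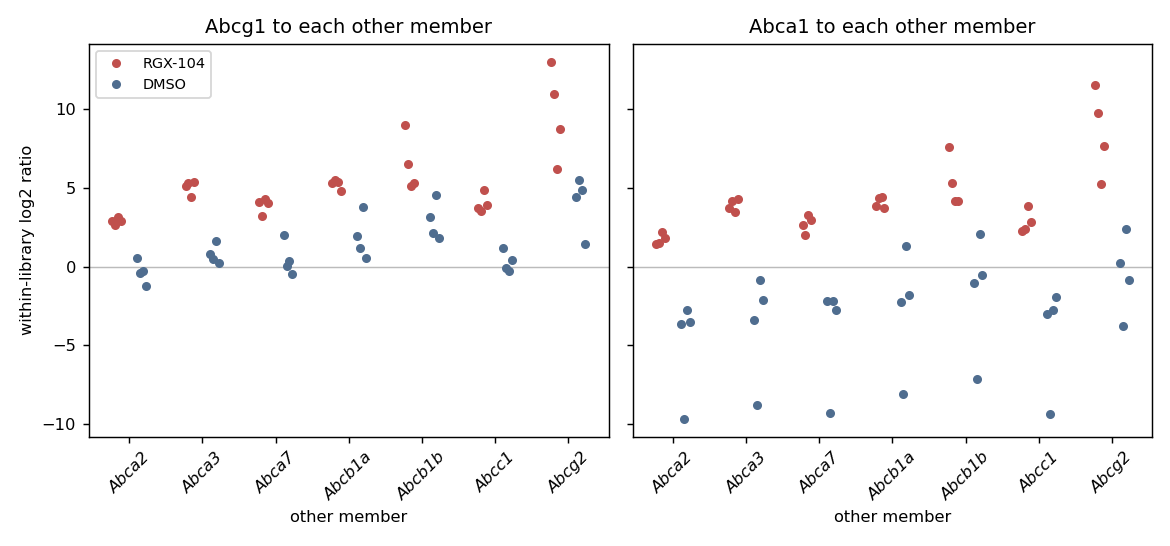
Within-library log2 ratio (vertical axis) of Abcg1 (left panel) and of Abca1 (right panel) to each of the 7 other members (horizontal axis) in the RGX-104 libraries (red) and the DMSO libraries (blue). In each of the 14 pairs the 4 red points lie above the 4 blue points. The lowest DMSO point of every Abca1 pair is replicate 2, which had no Abca1 count.

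The wider ABC superfamily, 53 listed genes with the members included, was then examined. Counts were found for 32 of these genes and 26 could be tested. Of these, 2 were called higher, Abca1 and Abcg1, and 0 lower, against 0.0996% and 0.00996% of all genes tested. Calls were rare among genes of any kind, so the lack of a call in the others says little by itself. Of the 17 tested genes outside the members, 10 had a higher and 7 a lower fitted level in RGX-104, and the median log2 fold change was 0.11. The upper bound of the log2 fold change lay below the lower bound of Abcg1 for 19 of the 24 tested genes other than the sterol exporters, and the 5 exceptions (Abcb8, Abcb10, Abcb11, Abcc4 and Abcg2) all had wide intervals. The most abundant outside the 9 members were Abcf1, a translation factor of the family that does not span membranes, at 141 ± 34.4 CPM in RGX-104 and 125 ± 12.6 CPM in DMSO, and Abcc5, an exporter of cyclic nucleotides and other anions, at 73.4 ± 5.39 CPM in RGX-104 and 67.7 ± 10.7 CPM in DMSO. Abce1, a ribosome recycling factor, was at 60.6 ± 12.1 CPM in RGX-104 and 60.8 ± 23.1 CPM in DMSO. Abcf3 was at 38.0 ± 5.70 CPM in RGX-104 and 32.6 ± 12.4 CPM in DMSO, and Abcb9, a lysosomal peptide transporter, at 28.1 ± 6.94 CPM in RGX-104 and 49.5 ± 24.3 CPM in DMSO.

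Abcf2, like Abcf1 a cytosolic protein of the family without membrane spans, was the one other superfamily gene whose groups did not overlap. Abcf2 was at 10.5, 14.7, 29.8 and 38.8 CPM in RGX-104 replicates 5 to 8, against 51.8, 96.8, 54.0 and 60.6 CPM in DMSO replicates 1 to 4. All RGX-104 libraries lay below all DMSO libraries, as was the case for 1.35% of genes tested. The log2 fold change of -1.50 ± 0.42 did not pass edgeR (unadjusted p = 0.00201, adjusted p = 0.872), was called by DESeq2 (adjusted p = 0.0437), and over all 15 alternatives had adjusted p-values of 0.0437 to 1.00. The members without overlap, Abca1 and Abcg1, stand against 2.2% of tested genes that were higher in this way.

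All libraries were listed at 0 for 21 superfamily genes, among them Abcg5 and Abcg8, which form the sterol exporter of liver and intestine and are LXR targets there. Tap1 and Tap2, the peptide pump of antigen presentation, were also listed at 0, as was Abcb4, a phospholipid floppase of the liver. Lymphocytes are known to express Tap1 and Tap2, so these zeros carry the same limit as those of Cd2 and Cd28 and do not show absence of expression. These genes were named after their values were seen.

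The sterol exporters held a larger share of superfamily counts in RGX-104. Abca1 and Abcg1 together made up 60.8%, 56.1%, 56.8% and 60.7% of superfamily counts in RGX-104 replicates 5 to 8, against 14.04%, 6.48%, 10.03% and 4.65% in DMSO replicates 1 to 4. The summed level of the superfamily was 1909 ± 55.9 CPM in RGX-104 and 895 ± 101 CPM in DMSO. Without Abca1 and Abcg1 it was 790 ± 52.7 CPM in RGX-104 and 814 ± 73.2 CPM in DMSO, with overlapping ranges of 726 to 849.7 CPM in RGX-104 and 714 to 888 CPM in DMSO. The share of the drug exporters was 4.57% ± 0.63 in RGX-104 and 10.6% ± 1.66 in DMSO, while their summed level overlapped between the groups, as given above.

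**Figure D4:**
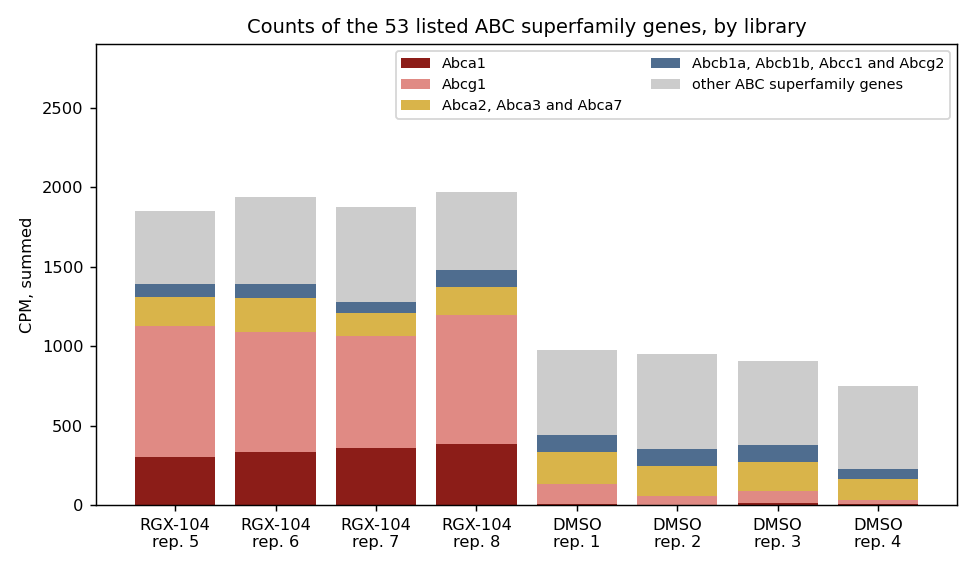
Summed CPM of the 53 listed ABC superfamily genes (vertical axis) in each library (horizontal axis), stacked by Abca1, Abcg1, the other lipid transporters, the drug exporters and the remaining genes. The RGX-104 bars reach 1851 to 1973 CPM and the DMSO bars 749 to 975 CPM, and the red segments for Abca1 and Abcg1 account for the difference in height.

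Genes around sterol export were read from a list of 20 that covers apolipoproteins, lysosomal sterol release and sterol transfer. Of 14 tested, none was called by edgeR, DESeq2 or limma-voom, against 0.11% of all genes tested called by edgeR. The median log2 fold change of the 14 was 0.04 (7 above 0 and 7 below). The 1 gene with an unadjusted edgeR p under 0.05 was Soat1, which esterifies cholesterol for storage and was named after its values were seen (log2 fold change 0.96 ± 0.35, unadjusted p = 0.0121, adjusted p = 1.00). Apoa1, the main apolipoprotein of high-density lipoprotein, was the 1 gene of the list whose groups did not overlap and was likewise named after its values were seen. It was at 2.83, 7.92, 5.31 and 5.52 CPM in RGX-104 replicates 5 to 8, against 0, 0, 1.52 and 0.491 CPM in DMSO replicates 1 to 4 (edgeR unadjusted p = 0.161, adjusted p = 1.00). These levels stand for very few apparent molecules per library, and 2.2% of genes tested were higher in RGX-104 without overlap. Npc2, which binds cholesterol in the lysosome, was at 925 ± 17.7 CPM in RGX-104 and 856 ± 118 CPM in DMSO. Gramd1a and Gramd1b, which carry sterol between plasma membrane and endoplasmic reticulum, were at 319 ± 58.8 and 81.7 ± 25.6 CPM in RGX-104 and at 363 ± 54.3 and 81.9 ± 34.1 CPM in DMSO. Lipa, the lysosomal acid lipase, was at 52.2 ± 25.8 CPM in RGX-104 and 51.8 ± 8.27 CPM in DMSO.

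Regulators known to act on transporter genes were read from a list of 14, which holds LXR and its partners, the xenobiotic sensors and stress factors. Of 8 tested none was called by edgeR, DESeq2 or limma-voom, against 0.11% of all genes tested called by edgeR. No unadjusted edgeR p was under 0.05, against 3.81% of all genes tested. The median log2 fold change of the 8 was 0.00 (4 above 0 and 4 below). The most abundant were Ybx1, a DNA and RNA binding protein linked to expression of P-glycoprotein in human cells, at 353 ± 37.4 CPM in RGX-104 and 335 ± 30.1 CPM in DMSO, and Trp53, the p53 tumour suppressor, at 149 ± 32.8 CPM in RGX-104 and 154 ± 42.3 CPM in DMSO. Nfe2l2, the oxidative stress factor NRF2 that drives several Abcc genes, was at 125 ± 8.75 CPM in RGX-104 and 119 ± 27.0 CPM in DMSO. Its inhibitor Keap1 was at 107 ± 39.7 CPM in RGX-104 and 101 ± 22.5 CPM in DMSO. Foxo3, a forkhead factor of stress responses and named after its values were seen, was the 1 gene of the list whose groups did not overlap. It was at 42.2, 43.5, 40.8 and 44.9 CPM in RGX-104 replicates 5 to 8, against 13.2, 24.0, 32.8 and 34.0 CPM in DMSO replicates 1 to 4. The lowest RGX-104 value thus exceeded the highest DMSO value, as for 2.2% of genes tested, and the log2 fold change of 0.70 ± 0.40 did not pass (edgeR unadjusted p = 0.0977, adjusted p = 1.00).

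The genes whose log2 CPM followed the exporters most closely over the 8 libraries were taken from 6164 genes with a mean of at least 20 CPM. For Abcg1 these were Fasn (r = 0.992), Scd2 (r = 0.986) and Mylip (r = 0.980), which encode a fatty acid synthase, a fatty acid desaturase and a ubiquitin ligase. For Abca1 they were Safb (r = 0.989), Ube2m (r = 0.979) and Stx6 (r = 0.977), none of which was called. The points share the group difference. In DMSO replicate 2, which had no Abca1 count, Safb, Ube2m and Stx6 were at their lowest (148, 9.04 and 13.2 CPM, against 194 to 215, 21.3 to 30.3 and 28.1 to 31.7 CPM in the other DMSO libraries). Between Abca1 and Abcg1 themselves r was 0.848. These values describe the 8 libraries and carry no test.

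Abca1 and Abcg1 are also strongly expressed by macrophages, so the markers of that cell type are given beside their rise. The 14 macrophage markers summed to 8.06 to 30.7 CPM in RGX-104 libraries and 11.2 to 30.9 CPM in DMSO libraries, none of the 3 tested was called, and Vsig4, C1qa, C1qb, Fcgr1 and Mertk had no count. The 10 markers of dendritic cells summed to 15.5 to 63.7 CPM in RGX-104 and 25.5 to 48.4 CPM in DMSO. Xcr1, Clec9a, Cd209a and Itgax were at 0, and Tcf4 made up most of the sum. B cell markers summed to 148 ± 36.0 CPM in RGX-104 and 136 ± 72.9 CPM in DMSO. Stromal markers summed to 96.6 ± 22.8 CPM in RGX-104 and 88.6 ± 29.5 CPM in DMSO. Nearly all of the stromal sum was Pecam1, at 62.9 to 115.6 CPM in RGX-104 and 63.8 to 123.5 CPM in DMSO. Pdgfra, Cdh5, Ccl19 and Pdpn were at 0, so that sum is no measure of stromal cells. The markers of CD4 and regulatory T cells, natural killer cells, neutrophils, erythroid cells and platelets had group means of 1.79 to 41.9 CPM in RGX-104 and 0.762 to 48.0 CPM in DMSO, with no tested gene called. In such bulk samples a change in the number of cells that express a gene and a change in transcripts per cell cannot be told apart.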

How the data were processed

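Messenger RNA of naive mouse CD8+ T cells was counted in 4 RGX-104 and 4 DMSO libraries. The deposited values are raw read counts per gene symbol, per the file headers and the values. The libraries came from a QuantSeq 3' kit, per the labels' protocols. The submitters' processing notes name the build GRCm38 and the tools DESeq2 1.4, STAR 2.7.8a and R 4.1.0, with no role stated. For the counting tool, the strand setting and molecular identifiers the sources used here give nothing.

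Counts were tested with edgeR 4.0.16 under R 4.3.3 (quasi-likelihood, TMM, filterByExpr with a minimum count of 10, group as the only term), with Benjamini-Hochberg adjustment over the 10037 genes tested. Standard errors are the size of the log2 fold change over the square root of F, and 95% intervals rest on them. CPM are counts divided by the library total and scaled to the same total. The ratios used log2 CPM with a prior count of 2 and a two-sided exact permutation test (SciPy 1.17.1). DESeq2 1.42.0 and limma 3.58.1 served as alternatives, and the edgeR, DESeq2 and limma steps were tested on simulated data. Apparent molecules are the number that gives, under Poisson sampling, the observed zeros among genes of 2 to 20 CPM in the other libraries. Zeros of any other origin would lower this estimate.

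The members and gene lists were chosen with earlier results of these data known. Besides the members, the text names called superfamily genes, the 6 most abundant others and those with an unadjusted p under 0.05, called genes and the 4 most abundant of the partner and regulator lists, the 3 genes most correlated with each sterol exporter, and overlapping genes; genes outside this rule are marked as named after their values were seen. A gene of the partner list is not reported here. Coordinates are 1-based on GRCm38. Promoter sequences are from RefSeq (GRCm38.p6) and strand and overlaps from GENCODE M21.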

Additional observations from a re-analysis of the deposited data

Results flagged for a closer look

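Within groups of 4 libraries, 62 groups of values of the named genes were examined for a library far from the other 3, and 2 were found, where chance gives about 1 in 20. None of them concerned a member. Lipa stood at 90.4 CPM in RGX-104 replicate 8, against 36.7 to 44.8 CPM in the others of its group. Npc2 in DMSO replicate 1, with 1032 CPM, lay above the 782 to 815 CPM of the others in its group.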

How the results depend on the processing

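No paired analysis was possible because library numbers are unique across the groups. Abcg1 was called under all 15 alternatives (log2 fold change 3.09 to 4.70) and Abca1 under 14 (5.21 to 7.32); with a robust dispersion Abca1 stayed at 5.68 without a call, which left 1 member and 1 superfamily gene called higher. Leaving out 1 replicate gave 5.26 to 6.31 for Abca1, 3.09 to 3.77 for Abcg1, and 2 members called each time. DESeq2 called 1 superfamily gene lower, Abcf2 (-1.52). Over all genes, 10 higher and 1 lower calls became 25 and 19 with DESeq2, 6 higher with the genes detected as a covariate, 4 lower without a filter and 3 lower with limma-voom, and ran over 7 to 11 higher and 1 to 3 lower with 1 replicate left out. Members that were not called turned direction as follows. Abcb1a (-0.07) was at 0.30 with limma-voom, 0.055 with the covariate and 0.017 against DMSO replicate 4 alone; Abcb1b (0.31) was at -0.44 with limma-voom; Abcc1 (-0.22) was at 0.53 with the covariate and 1.18 against DMSO replicate 4 alone. With 1 replicate left out they ran over -0.40 to 0.22 (Abcb1a), -0.049 to 0.68 (Abcb1b) and -0.50 to 0.079 (Abcc1), and Abca7 over -0.15 to 0.28. The 14 ratios stayed separated with prior counts of 0.5 and 5. The causes of these changes were not tested. Few apparent molecules per library were estimated for Abcb1b (0.368 to 7.04), Abcb1a (1.16 to 9.92), Abca3 (5.30 to 15.0) and Abcg2. The same held for Abca1 in DMSO. This may limit what can be seen for these genes.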
